A study of Arabidopsis thaliana with 12 samples.

Results

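In the wild type (WT) libraries of this mRNA-seq experiment, most annotated transposable elements (TEs) of Arabidopsis thaliana had no reads. The elements described here were chosen by their measured values, as the TEs at 0 RPKM (reads divided by feature length and library total) in all 3 WT libraries and above 0 in at least 1 of 9 mutant libraries. There were 1474 such TEs among 31189 TEs of the table (4.73%) and among 2864 TEs with reads in any of the 12 libraries (51.5%). The other 1390 TEs with reads had at least 1 read in WT, and 28325 TEs had no reads in any library. Because the rule set WT to 0, values against WT are given as a description without a test, and tests were run only between mutants, which the rule treated alike.

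TEs are mobile or formerly mobile DNA, and in plants most of them are kept silent by DNA methylation and repressive histone marks. In RNA-directed DNA methylation (RdDM), polymerase IV makes the precursors of small interfering RNAs, and these guide a methyltransferase to sites where polymerase V makes scaffold transcripts. TEs that lose such silencing can yield polyadenylated transcripts, which is what an mRNA library can detect. PICKLE (PKL) is a chromatin remodeler of the CHD family that is best known for keeping embryonic and seed genes silent in seedlings.

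The compared genotypes were pkl (allele pkl-1), nrpd1 (nrpd1-3, which affects the largest subunit of polymerase IV), nrpe1 (nrpe1-11, which affects the largest subunit of polymerase V) and WT (Columbia), with 3 biological replicates each. RNA came from whole seedlings grown for 2 weeks, with no treatment, and was made into stranded poly(A) libraries. The comparison among mutants asks whether TEs without reads in WT are detected in pkl as they are in mutants of RdDM. In whole seedlings, expression in fewer cells and less RNA per cell cannot be told apart.

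Library totals ran from 15242073 to 21475250 reads, except for nrpe1 replicate 2, which had 7204299. TEs took 0.0269% to 0.0594% of the reads. ROS1, a DNA demethylase gene whose transcript is known to depend on DNA methylation, averaged 1.95 ± 0.196 RPKM in pkl, 0.0258 ± 0.0272 RPKM in nrpd1 and 1.07 ± 0.102 RPKM in nrpe1, against 12.6 ± 2.53 RPKM in WT (SD, n = 3 each). NRPE1 had 0.641 ± 0.241 RPKM in nrpe1 and 1.83 ± 0.447 in WT. NRPD1 had 1.03 ± 0.226 RPKM in nrpd1 and 1.42 ± 0.168 in WT, and PKL had 22.7 ± 3.48 RPKM in pkl and 18.3 ± 3.63 in WT, so the PKL transcript does not check the pkl label. The leaf markers RBCS1A and LHCB1.1 and the root markers PHT1;1, RHD6 and CASP1 were present in every library. A list of 10 seed genes summed to 8.24, 0.784 and 1.59 RPKM in pkl replicates 1, 2 and 3, to 0.358 to 0.630 in the nrpd1 and nrpe1 libraries, and to 0.237 to 0.291 in the WT libraries, with EM1 and LEC1 at 0 throughout.

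Most of the 1474 TEs were detected by very few reads. Reads were found in 1 mutant library only for 950 TEs (64.5%), in 2 libraries for 230, in 3 for 108, in 4 for 70, in 5 for 48 and in 6 for 44. Only 16, 4 and 4 TEs had reads in 7, 8 and 9 libraries. The median TE had 1 read over all 9 libraries, and 927 TEs (62.9%) had exactly 1, which together gave 8.70% of the 10659 reads of the group. Reads were concentrated in a few elements. The 23 TEs with 100 reads or more held 57.6% of the reads, the 10 most abundant TEs held 41.8%, and the highest had 764 reads. At the border of the rule, the 927 TEs with 1 mutant read stood just inside, and 666 TEs with 1 read in WT stood just outside. Of these 666, 389 had reads in a mutant and 69 had reads in all 3 libraries of a mutant.

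The same rule was applied with each mutant in place of WT, as a description. TEs at 0 in a genotype and above 0 elsewhere numbered 1434 for pkl, 1170 for nrpd1 and 1358 for nrpe1, against 1474 for WT. Each genotype thus had such a group, and the groups differed in how often the reads were repeated. Of these TEs, 107 for pkl, 40 for nrpd1 and 55 for nrpe1 had reads in all 3 libraries of another genotype, against 134 for WT. With at least 3 reads in each of those libraries, the numbers were 42 for pkl, 9 for nrpd1 and 7 for nrpe1, against 54 for WT. The 3 pooled libraries of a genotype held 55595184 reads for pkl, 60477317 for nrpd1 and 42050515 for nrpe1, against 52661488 for WT.

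**Figure D1:**
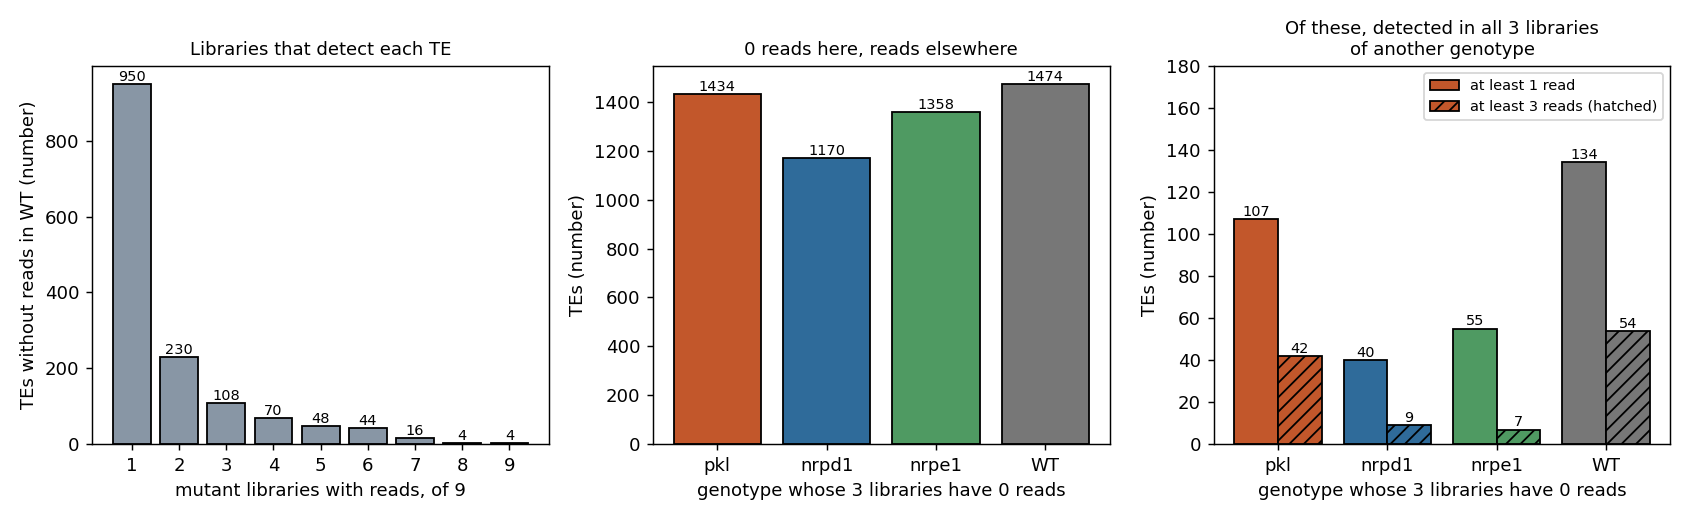
Number of TEs by how many of the 9 mutant libraries had reads (left), number of TEs with 0 reads in all 3 libraries of a genotype and reads elsewhere (middle), and how many of these had at least 1 read or at least 3 reads (hatched) in all 3 libraries of another genotype (right). Of the TEs at 0 in WT, 950 were seen in 1 library, and the right panel is highest for WT (134 and 54) and pkl (107 and 42).

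Fewer of the 1474 TEs were detected in pkl than in nrpd1 or nrpe1. At the depth of each library, 162, 280 and 256 TEs had reads in pkl replicates 1, 2 and 3, 309, 374 and 403 in nrpd1, and 282, 258 and 374 in nrpe1. The highest pkl library thus overlapped the lowest nrpe1 library, which was the shallow one. To allow for depth, each library was thinned to 7204299 reads, the smallest mutant total, and the expected number of TEs with at least 1 read was computed. Recovered reads can be too low, which lowers this number in every library except nrpe1 replicate 2, which needed no thinning.

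At this common depth the expected number was 73.3, 113 and 131 TEs in pkl, 161, 176 and 187 in nrpd1, and 160.0, 258 and 200.3 in nrpe1. All 3 pkl libraries lay below all 6 libraries of the RdDM mutants, while nrpd1 and nrpe1 overlapped. The means were 106 ± 29.4 in pkl, 175 ± 13.3 in nrpd1 and 206 ± 49.2 in nrpe1 (mean ± SD, n = 3), and differed among the 3 mutants in an exact permutation test over the 9 libraries (p = 0.0179, adjusted p = 0.0464 over 13 values). The adjusted p was 0.120 when libraries were permuted within replicate numbers, and 0.204 without thinning. When 1 library was left out it ran from 0.00774 to 0.212, and it stayed under 0.05 in 1 of 9 such tests, the test without nrpe1 replicate 1. In each of the 3 replicate numbers pkl was below nrpd1 and below nrpe1. The pkl library with the lowest number, replicate 1, also had the highest sum of seed transcripts (8.24 RPKM), and the part of this in the result was not tested.

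For TEs with reads in WT, the ranges of the 3 mutants overlapped. At the common depth 314, 433 and 459 of them were expected with reads in pkl, 375, 437 and 446 in nrpd1, and 369, 510 and 454 in nrpe1, against 407, 523 and 517 in WT. The TEs without WT reads therefore made up 18.9%, 20.8% and 22.2% of all TEs detected in pkl, 30.0%, 28.8% and 29.6% in nrpd1, and 30.2%, 33.6% and 30.6% in nrpe1. None of the 3 ranges overlapped with another. The mean shares were 20.6 ± 1.64% in pkl, 29.4 ± 0.637% in nrpd1 and 31.5 ± 1.84% in nrpe1 (mean ± SD, n = 3; exact permutation p = 0.00357, the smallest these 9 libraries allow, adjusted p = 0.0464). Permuted within replicate numbers, where p cannot go below 0.0278, the adjusted p of the share was 0.0722.

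The difference in reads was larger than that in detected TEs. The 1474 TEs had 12.5, 21.3 and 25.6 RPM (reads scaled to the library total, without length) in pkl, 72.8, 101 and 98.6 in nrpd1, and 74.8, 120 and 105 in nrpe1. The means were 19.8 ± 6.68 in pkl, 90.8 ± 15.7 in nrpd1 and 100 ± 23.2 in nrpe1 (mean ± SD, n = 3; exact permutation p = 0.0179, adjusted p = 0.0464). Within replicate numbers the exact permutation p was 0.0278, the smallest possible, and the adjusted p was 0.0722. Again pkl did not overlap with either RdDM mutant, and nrpd1 and nrpe1 overlapped. TEs with at least 3 reads in a library numbered 12, 28 and 21 in pkl, 56, 73 and 65 in nrpd1, and 58, 45 and 84 in nrpe1. For the 524 TEs with reads in at least 2 libraries, the expected number at the common depth was 69.1 ± 18.0 in pkl, 129 ± 4.78 in nrpd1 and 149 ± 27.0 in nrpe1 (mean ± SD, n = 3; exact permutation p = 0.0143). A test of 3 against 3 libraries cannot give a p under 0.1, so pairs of mutants were not tested.

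**Figure D2:**
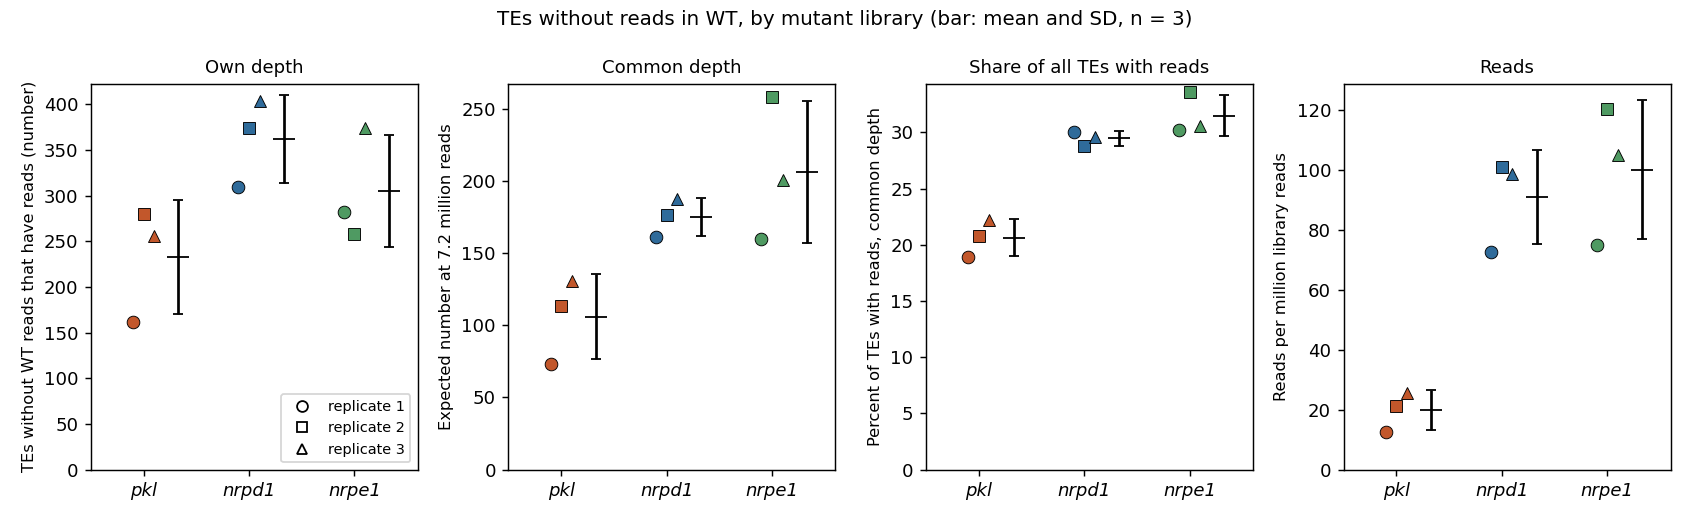
The TEs without WT reads in each mutant library (points, shape by replicate number) with mean and SD (n = 3): number detected at the library's own depth, expected number at 7204299 reads, share of all detected TEs at that depth in percent, and RPM. At the common depth the pkl libraries (73.3 to 131 TEs) lie below all nrpd1 and nrpe1 libraries (160.0 to 258 TEs).

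By the chromosome digit in the identifier, 323 of the 1474 TEs were on chromosome 1, 272 on chromosome 2, 335 on chromosome 3, 224 on chromosome 4 and 320 on chromosome 5. As shares of the group these were 21.9%, 18.5%, 22.7%, 15.2% and 21.7%, beside 22.9%, 19.1%, 20.7%, 15.9% and 21.4% of all annotated TEs. The largest gap was thus on chromosome 3, with 22.7% of the group and 20.7% of all TEs. Reads were spread less evenly, with 3401 on chromosome 3 and 2645 on chromosome 2, and 1767, 1667 and 1179 on chromosomes 1, 5 and 4.

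On each chromosome the pkl libraries lay below those of nrpd1 and nrpe1 at the common depth. On chromosome 3 the expected number was 24.2 ± 7.55 in pkl, 42.5 ± 3.20 in nrpd1 and 53.6 ± 8.53 in nrpe1 (mean ± SD, n = 3; exact permutation p = 0.00714, adjusted p = 0.0464). On chromosome 4 it was 17.8 ± 4.67 in pkl, 25.6 ± 2.62 in nrpd1 and 30.8 ± 7.14 in nrpe1 (mean ± SD, n = 3; exact permutation p = 0.0143, adjusted p = 0.0464). Permuted within replicate numbers, both chromosomes had an exact permutation p of 0.0278, the smallest possible, and an adjusted p of 0.0722. Without thinning the adjusted p-values were 0.271 for chromosome 3 and 0.314 for chromosome 4. When 1 library was left out, the call was lost in 4 of 9 tests for chromosome 3 and in 8 of 9 for chromosome 4, with adjusted p-values of up to 0.0696 and 0.212.

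The other chromosomes did not pass the threshold after adjustment. Chromosome 1 had 21.7 ± 6.34 in pkl, 37.3 ± 0.773 in nrpd1 and 45.5 ± 16.5 in nrpe1 (mean ± SD, n = 3; exact permutation p = 0.0286, adjusted p = 0.0619). Chromosome 2 had 18.6 ± 5.94 in pkl, 34.4 ± 3.66 in nrpd1 and 35.9 ± 7.38 in nrpe1 (mean ± SD, n = 3; exact permutation p = 0.0357, adjusted p = 0.0663). Chromosome 5 had 23.5 ± 5.44 in pkl, 35.0 ± 5.53 in nrpd1 and 40.3 ± 11.1 in nrpe1 (mean ± SD, n = 3; exact permutation p = 0.0964, adjusted p = 0.139). Permuted within replicate numbers, its exact permutation p was 0.0278, the smallest possible. Its adjusted p was then 0.0722, the same as for chromosomes 3 and 4. On these 3 chromosomes too, no pkl library reached the lowest nrpd1 or nrpe1 library.

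The share of each chromosome among the detected TEs of a library did not differ among the mutants beyond the threshold on any chromosome, with adjusted exact permutation p-values of 0.110 to 0.811. The lowest belonged to chromosome 4, which held 16.8 ± 0.492% of the detected TEs in pkl, 14.6 ± 0.659% in nrpd1 and 15.0 ± 1.20% in nrpe1 (mean ± SD, n = 3; exact permutation p = 0.0679). The chromosome 4 shares of the pkl libraries (16.3% to 17.2%) overlapped neither those of nrpd1 (14.0% to 15.3%) nor those of nrpe1 (13.8% to 16.2%). Of the other shares, chromosome 3 did not overlap between pkl and nrpd1, nor chromosome 5 between pkl and nrpe1. Chromosome 3 held 22.7 ± 1.05% in pkl, 24.3 ± 0.291% in nrpd1 and 26.4 ± 2.73% in nrpe1 (mean ± SD, n = 3; exact permutation p = 0.114, adjusted p = 0.148). The lower detection in pkl was therefore not shown to be uneven between chromosomes.

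**Figure D3:**
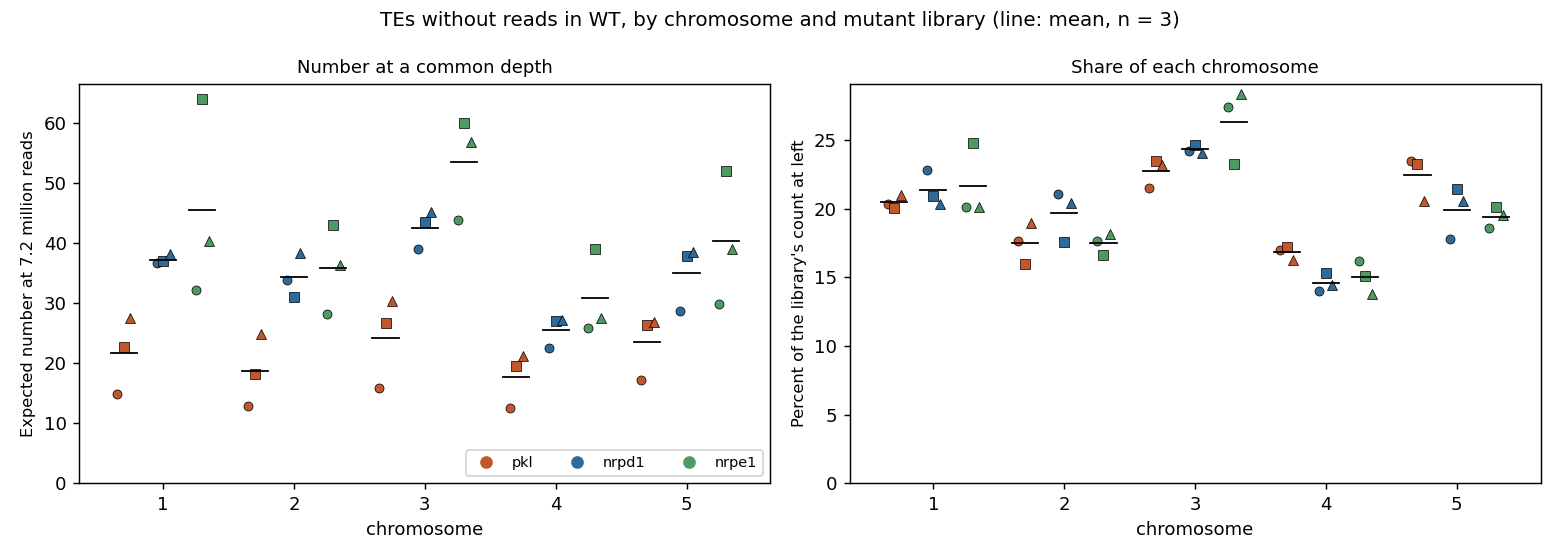
The TEs without WT reads by chromosome in each mutant library (points, shape by replicate number as in the plot of libraries, lines for means, n = 3): expected number at 7204299 reads (left) and share of that library's expected number in percent (right). On chromosome 3 the means are 24.2 in pkl, 42.5 in nrpd1 and 53.6 in nrpe1, and in the right panel the pkl shares of chromosome 4 (16.3% to 17.2%) lie above those of nrpd1 and nrpe1.

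Counted over the libraries of a mutant, 563 of the 1474 TEs had reads in pkl, 787 in nrpd1 and 674 in nrpe1. Of these, 455 in pkl, 580 in nrpd1 and 502 in nrpe1 were seen in 1 library of the mutant, and 81, 115 and 104 in 2 libraries. Reads in all 3 libraries of a mutant were found for 27 TEs in pkl, 92 in nrpd1 and 68 in nrpe1. Since WT was 0, these are the TEs whose mutant libraries all lay above WT. All 3 mutant libraries lay above all 3 WT libraries for 2.37% of the TEs with reads in pkl, 4.64% in nrpd1 and 4.05% in nrpe1, and for 12.3% of all features with reads in pkl, 4.5% in nrpd1 and 3.59% in nrpe1. The rule used this contrast, so nothing is read from these shares. With at least 3 reads in each of the 3 libraries there were 7 TEs in pkl, 42 in nrpd1 and 30 in nrpe1, and with at least 10 reads there were 1, 23 and 14.

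By chromosome, TEs with reads in all 3 libraries numbered 2, 5, 10, 4 and 6 on chromosomes 1 to 5 in pkl, 19, 16, 30, 10 and 17 in nrpd1, and 10, 12, 21, 14 and 11 in nrpe1. Chromosome 3 held the most in each mutant. On chromosome 1, where pkl had the fewest, 129 TEs had reads in at least 1 pkl library, and 108 of them in a single library.

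The elements detected in all 3 libraries were in part the same in different mutants, which were all selected against the same WT libraries. Of the 92 TEs in nrpd1 and the 68 in nrpe1, 45 were the same (48.9% of the nrpd1 and 66.2% of the nrpe1 TEs). The 27 pkl TEs shared 7 with nrpd1 (25.9% of the pkl and 7.61% of the nrpd1 TEs) and 5 with nrpe1 (18.5% and 7.35%). All 3 libraries of both RdDM mutants and no pkl library had reads for 31 TEs, all 3 pkl libraries and no other had reads for 7, and all 9 mutant libraries for 4. Over any number of libraries, 302 TEs had reads in pkl only, 418 in nrpd1 only, 312 in nrpe1 only, 181 in nrpd1 and nrpe1 only, and 108 in all 3 mutants. A TE seen in 1 mutant only was mostly a TE seen by few reads, and such a pattern at this depth does not show absence from the others.

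The most abundant of these TEs were high in both RdDM mutants and at 0 or near 0 in pkl. AT3TE66175 (recovered length 8267 bases) had 0, 0 and 0 reads in pkl, 93, 197 and 135 in nrpd1, and 86, 53 and 141 in nrpe1, against 0 in WT. AT1TE44720 (8285 bases) had 1, 0 and 0 reads in pkl, 76, 165 and 146 in nrpd1, and 97, 84 and 195 in nrpe1. AT2TE07550 (7838 bases) had 1, 2 and 0 reads in pkl, 98, 152 and 133 in nrpd1, and 97, 68 and 150 in nrpe1. In all of them no pkl library came near the lowest RdDM library.

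Per length, these long elements were expressed at a low level. AT3TE66175 had 0.840 ± 0.265 RPKM in nrpd1 and 0.817 ± 0.166 in nrpe1 (mean ± SD, n = 3), AT1TE44720 had 0.761 ± 0.236 in nrpd1 and 1.13 ± 0.375 in nrpe1, and AT2TE07550 had 0.803 ± 0.122 in nrpd1 and 0.999 ± 0.233 in nrpe1. Because WT had no reads, a fold change against WT is a lower bound, computed against 3 reads per WT library. It was at least 40.2-fold in nrpd1 and 39.1-fold in nrpe1 for AT3TE66175, and at least 36.5-fold in nrpd1 and 54.4-fold in nrpe1 for AT1TE44720.

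Shorter elements reached higher levels per length. AT2TE69490 (1257 bases) had 1, 0 and 0 reads in pkl, 70, 151 and 112 in nrpd1, and 86, 44 and 100 in nrpe1, which is 4.32 ± 1.34 RPKM in nrpd1 and 4.45 ± 0.375 RPKM in nrpe1 (mean ± SD, n = 3). AT3TE76405 (1214 bases) had no reads in pkl, 52, 142 and 128 in nrpd1, and 58, 31 and 97 in nrpe1. AT5TE25535 (1285 bases) had no reads in pkl, 43, 73 and 81 in nrpd1, and 45, 23 and 75 in nrpe1. These elements too were at 0 in every WT library and at 0 or 1 read in every pkl library.

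The mutants were compared directly with limma on log2(RPKM + 0.1), over 23669 features that reached 0.1 RPKM in 3 or more of the 12 libraries, and a feature was called at an adjusted p under 0.05 and a 2-fold change. Of the 1474 TEs, 203 passed this filter. Set against the average of both RdDM mutants, 47 TEs were lower in pkl and 7 were higher. Of all features tested, 1.54% were called lower in pkl and 1.62% higher, while the 47 and 7 TEs made up 23.2% and 3.45% of the 203. Without the filter, limma tested all 1474 and called 46 lower (3.12%) and 8 higher (0.543%) in pkl, beside 1.22% lower and 1.37% higher of 28130 features with reads. A TE at 0 in WT passes the filter only through mutants in which it is high. Counts, shares and p-values of the 203 therefore describe TEs selected in this way and do not extend to the others. The shares over all features did not go through this selection, so no enrichment is read from the gap. TEs with reads in 1 mutant only had to differ once they passed. TEs under 0.1 RPKM in every pkl library passed only through nrpd1 and nrpe1, so the filter itself favoured a lower pkl. Some others also passed only with the side on which they were higher, since fewer than 3 of the remaining libraries reached 0.1 RPKM. All of these are given below without a p for the contrast concerned. The WT libraries, at 0 by the rule, add libraries but no spread to the model, which lowers the estimated spread of these TEs. The SE and limma p-values printed for single TEs come from this model and are too low for that reason. With the libraries of the mutants only, 37 TEs were lower and 7 higher in pkl.

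The largest log2 differences in this direction, whose size depends on the pseudocount where pkl is at 0, were those of AT2TE69490 (log2 fold change -5.29, SE 0.23) and AT3TE76405 (-5.28, SE 0.27). In reads per length, AT2TE69490 was at least 33.6-fold lower and AT3TE76405 at least 29.2-fold lower in pkl than in the mean of nrpd1 and nrpe1, taking 3 reads per pkl library as the floor. AT3TE72000 had 0, 0 and 1 reads in pkl, 30, 47 and 44 in nrpd1, and 15, 2 and 25 in nrpe1 (-4.90, SE 0.49), at least 8.63-fold lower in pkl. With reads in only 1 pkl library, it passed the filter through nrpd1 and nrpe1. The low nrpe1 value was that of the shallow library, which was also the lowest in RPKM (1.02, against up to 5.01 in nrpe1). AT5TE25535 (-4.70), AT3TE47360 (-4.43), AT5TE26810 (-4.23), AT5TE30565 (-3.94) and AT4TE44410 (-3.90) followed, all with no reads in pkl. Against the floor, AT5TE25535 was at least 20.0-fold, AT3TE47360 at least 10.1-fold and AT5TE26810 at least 5.50-fold lower in pkl. The bounds of AT4TE44410 (1.96-fold) and AT5TE30565 (1.80-fold) were much smaller, since few reads lay behind them. The 47 TEs lower in pkl lay on all chromosomes. They include AT4TE03140, with reads in nrpd1 only, and AT4TE07115 and AT3TE54005, with reads in nrpe1 only.

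A small set of TEs ran the other way, with reads in all pkl libraries and few or none in the RdDM mutants. AT5TE34435, with a recovered length of 32 bases, had 9, 17 and 20 reads in pkl and none in any other library. These are 15.5, 24.7 and 39.1 RPKM, and the short length makes few reads a high level. Against 3 reads per library of the RdDM mutants, pkl was at least 4.20-fold higher.

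AT5TE47170 had 11, 40 and 48 reads in pkl, none in nrpd1, and 1, 0 and 2 in nrpe1. Its level was 8.33 ± 5.48 RPKM in pkl and 0.258 ± 0.250 RPKM in nrpe1 (mean ± SD, n = 3; log2 fold change against the average of both RdDM mutants 5.38, SE 0.57). Without pkl it would not have passed the filter, since outside pkl only 2 nrpe1 libraries had reads. The 3 pkl libraries, at 2.77, 8.51 and 13.7 RPKM, all lay above every nrpe1 library. Against WT, pkl was at least 10.6-fold higher.

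The 5 other TEs called higher in pkl had fewer reads. AT3TE92805 had 1, 6 and 2 reads in pkl and none elsewhere, too few for a bound on its fold change. AT4TE26315 had 3, 11 and 13 reads in pkl, none in nrpd1, and 0, 0 and 1 in nrpe1, at least 2.47-fold higher in pkl. AT4TE26325 had 3, 4 and 4 reads and AT4TE26355 had 4, 13 and 7 reads in pkl, with none in the other mutants. The reads of AT4TE26325 were too few for a bound, and AT4TE26355 was at least 2.09-fold higher in pkl. These 3 TEs of chromosome 4 are close in identifier order, 7 steps from first to last. Between them AT4TE26345 had 1 read, in pkl replicate 3, and the 4 remaining elements had none in any library.

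AT3TE90545 had 4, 7 and 4 reads in pkl and none elsewhere, at least 1.32-fold higher in pkl. AT3TE90530, 3 steps away in identifier order, had 4, 7 and 2 reads in pkl and none elsewhere, with the 2 elements between them at 0. The count of TEs higher in pkl rested on all pkl libraries: it was 2, 2 and 1 when pkl replicate 1, 2 or 3 was left out, and each time 1 of these was among the 7. The 5 TEs of the 7 with reads in pkl only then no longer passed the filter on 3 libraries. Neither did AT4TE26315, which reached 0.1 RPKM in pkl only, so that AT5TE47170 alone was still tested. The count of TEs lower in pkl was 31 without pkl replicate 2 and also 31 without pkl replicate 3. AT4TE40115 was the abundant TE detected in every mutant library, with 11, 5 and 9 reads in pkl, 29, 40 and 53 in nrpd1, and 15, 5 and 21 in nrpe1. Its level was 2.14 ± 0.937 RPKM in pkl, 9.18 ± 2.30 in nrpd1 and 4.20 ± 1.05 in nrpe1 (mean ± SD, n = 3), against 0 in WT. Unlike the TEs above, it was called lower in pkl than in the average of both RdDM mutants, by 3.12-fold (log2 fold change -1.57, SE 0.29, limma adjusted p = 0.0108). No call was made against each RdDM mutant alone.

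**Figure D4:**
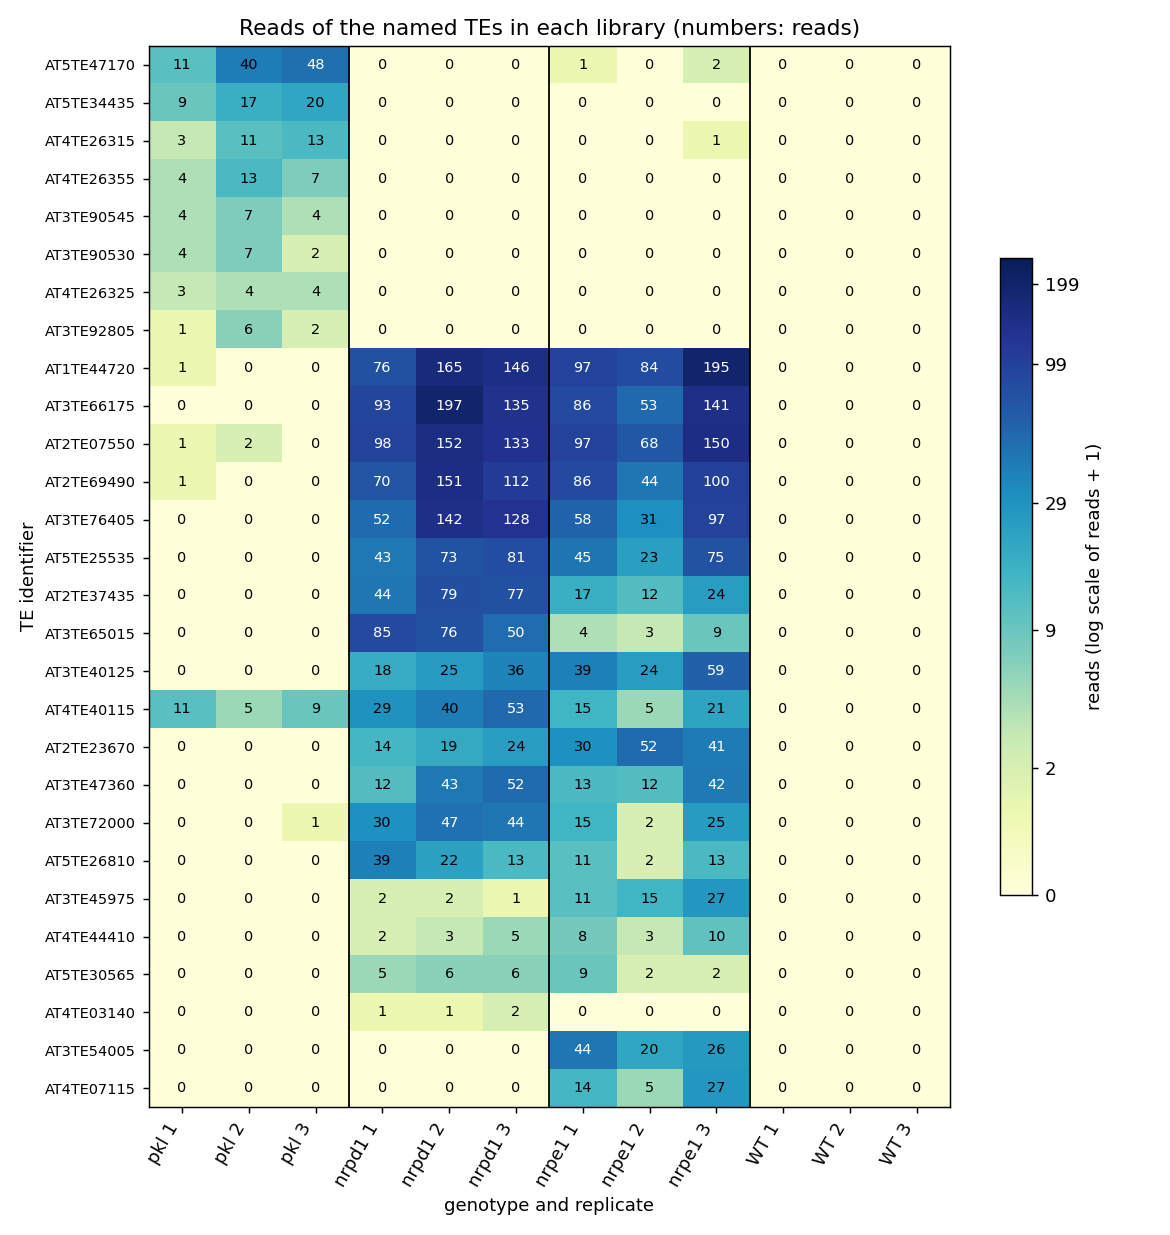
Reads of the 28 named TEs (rows) in the 12 libraries (columns: pkl, nrpd1, nrpe1 and WT, replicates 1 to 3), with colour on a log scale of reads + 1 and the read number in each cell. The upper 8 TEs have reads in pkl and at most 2 reads in any other library, most of the lower 20 have reads in nrpd1 and nrpe1, and AT4TE40115 has reads in all 9 mutant libraries.

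Between nrpd1 and nrpe1 few of these TEs were called. In nrpd1 against nrpe1, 2 TEs were higher and 4 lower in nrpd1 of the 203 tested (0.985% and 1.97%), and 0.0803% and 0.532% of all features tested were called in these directions. At an unadjusted limma p under 0.05, 16 of the 203 were higher (7.88%) and 20 lower (9.85%), beside 1.07% and 2.05% of all features tested. The 203 passed the filter through the mutants alone, so no enrichment is read from these shares either. Without the filter, 2 of the 1474 TEs were called higher (0.136%) and 5 lower (0.339%), beside 0.0747% and 0.448% of features. With the libraries of nrpd1 and nrpe1 only, limma tested 130 and called 0 higher and 1 lower (10 and 11 at an unadjusted p under 0.05), and voom on all 12 libraries called 1 higher and 3 lower, so that without the other genotypes only the call of AT4TE07115 was kept.

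AT4TE07115 had no reads in nrpd1 and 14, 5 and 27 in nrpe1, which is 3.34, 2.74 and 5.84 RPKM in nrpe1. It was at least 6.73-fold lower in nrpd1. AT3TE54005 had no reads in nrpd1 and 44, 20 and 26 in nrpe1, at least 15.3-fold lower in nrpd1. Neither had reads in pkl or WT, so that these elements were seen in nrpe1 only and passed the filter through nrpe1 alone.

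AT3TE45975 was also lower in nrpd1, with 2, 2 and 1 reads, against 11, 15 and 27 in nrpe1 (log2 fold change -2.95, SE 0.38). Without nrpe1 it would not have passed the filter. AT4TE44410 had 2, 3 and 5 reads in nrpd1 and 8, 3 and 10 in nrpe1 (-1.51, SE 0.29, limma adjusted p = 0.0468). This call was lost with the replicate block (limma adjusted p = 0.0543) and in 11 of 12 fits that left out 1 library, where the adjusted p ran from 0.0261 to 0.234.

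AT3TE65015 was the clearest element higher in nrpd1, with 85, 76 and 50 reads in nrpd1 and 4, 3 and 9 in nrpe1. Its level was 1.20 ± 0.372 RPKM in nrpd1 and 0.130 ± 0.0438 in nrpe1 (mean ± SD, n = 3), 9.20-fold higher in nrpd1 (log2 fold change 2.47, SE 0.30). Without nrpd1, AT3TE65015 would not have passed the filter. AT4TE03140 was called with only 1, 1 and 2 reads in nrpd1 and none in any other mutant, which is within the floor of 3 reads per library, and voom on the reads did not call it. Among the abundant TEs that were not called, AT2TE37435 had 44, 79 and 77 reads in nrpd1 and 17, 12 and 24 in nrpe1. AT2TE23670 had 14, 19 and 24 reads in nrpd1 and 30, 52 and 41 in nrpe1, and AT3TE40125 had 18, 25 and 36 in nrpd1 and 39, 24 and 59 in nrpe1.

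The rule did not use the length of the TEs or their order along a chromosome. The TEs with reads in all 3 libraries of a mutant had a median recovered length of 364 bases in pkl (27 TEs), 1223 bases in nrpd1 (92 TEs) and 1225 bases in nrpe1 (68 TEs), beside 368.5 bases for 524 TEs that had reads in WT and in all 3 libraries of a mutant. Elements of 4000 bases or more made up 11.1% of them in pkl, 26.1% in nrpd1 and 19.1% in nrpe1, beside 9.54% of the 524. More reads fall on a longer element at the same level per length, so length and detection are linked, and no test was run. Of the 1474 TEs, 308 (20.9%) stood next to another in identifier order, in runs of up to 4, as did 294 of the 1390 TEs with WT reads (21.2%).

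Of 25 genes for RdDM and other TE silencing, including NRPD1, NRPE1, the methyltransferase gene DRM2 and the remodeler gene DDM1, all were tested. With pkl set against the average of both RdDM mutants, limma and voom called 0 of them in either direction, and at an unadjusted p under 0.05 each had 1 higher and 0 lower in pkl. In nrpd1 against nrpe1, NRPE1 was called higher and NRPD1 lower in nrpd1, which are the mutated genes themselves. NRPD1 had 1.03 ± 0.226 RPKM in nrpd1, 2.36 ± 0.128 in nrpe1 and 1.42 ± 0.168 in WT (mean ± SD, n = 3). Its call thus rests in part on a value above WT in nrpe1.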

How the data were processed

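The authors trimmed adapters and low-quality bases (Trim Galore 0.4.0), aligned paired reads to TAIR10 and counted reads per gene and per TE with featureCounts (Subread 1.5.1), per the methods and the submitters' processing notes, and deposited RPKM. How reads with several positions, overlapping features or strand were handled is not given in the sources used here, and reads of near-identical TE copies are therefore uncertain. The deposited RPKM values move in steps of 1 read. Reads, feature lengths and library totals were recovered from these steps: 100% of values were whole within 1.1e-09, and at least 99.9998% of each total was recovered. The smallest fitting whole numbers were taken. A TE's reads and length can therefore be too low but not too high, and TEs counted with 1 read can have more.

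Groups and replicate numbers came from the sample titles. The 13 values per mutant library were tested with an exact permutation test (F statistic, two-sided, 1680 assignments, Benjamini-Hochberg). Expected numbers at a common depth were computed from recovered reads. Mutants were compared with limma 3.58.1 in R 4.3.3 (trend, pseudocount 0.1, 1 mean per genotype, all 12 libraries). The study tested counts, and voom on the recovered reads was an alternative here, beside other pseudocounts, no filter, median-ratio scaling, the replicate block and leaving out libraries. Samples with the same replicate number deviated together (r 0.149 to 0.600 over 18 pairs, against -0.479 to 0.229 over 36 pairs of different numbers), so blocked values are printed where they change a call. Scripts were tested on simulated data. Named were, per mutant, the 8 TEs whose lowest read number over its 3 libraries was highest, and the TEs called between mutants, up to 12 per contrast by log2 fold change. The lower-ranked TEs called higher in pkl, AT4TE26345 and the distances between TEs were chosen after their values were seen. The TEs and lists were chosen with earlier results of these data known. Floors of 3 reads cover counting error only.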

Additional observations from a re-analysis of the deposited data

How the results depend on the processing

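In 94 of 94 alternatives for detection and reads (the replicate block, which keeps the means, not counted), pkl stayed below the mean of nrpd1 and nrpe1. Most of these left out 1 library, which could not change the direction, since every pkl library lay below every nrpd1 and nrpe1 library. The calls at an adjusted p under 0.05 depended on depth and on single libraries. Without thinning, the adjusted exact permutation p was 0.204 for all chromosomes, 0.271 for chromosome 3, 0.314 for chromosome 4 and 0.129 for the share of TEs. At the depth of the second smallest library, with nrpe1 replicate 2 left out, it was 0.141, 0.141 and 0.161 for all chromosomes and chromosomes 3 and 4. With at least 3 reads and no thinning, chromosomes 1 and 2 passed (both 0.0375). With the replicate block it was 0.120 for all chromosomes and 0.144 for chromosomes 1 and 2. It was 0.0722 for chromosomes 3, 4 and 5, the share and the RPM, each from the smallest exact permutation p possible (0.0278). When each library was left out in turn, it ran from 0.00774 to 0.212 for all chromosomes (lost in 8 of 9), 0.00774 to 0.263, 0.0232 to 0.212, 0.00774 to 0.0696, 0.00774 to 0.212 and 0.00774 to 0.312 for chromosomes 1 to 5, 0.00774 to 0.0696 for the share and 0.0133 to 0.102 for the RPM. The lowest p of all chromosomes and of chromosomes 1, 2 and 5 came without nrpe1 replicate 1. Chromosome 3 was lost without pkl replicate 1 or any nrpd1 replicate, the share without any nrpd1 replicate, and chromosome 4 and the RPM without any library but nrpe1 replicate 1. The chromosome 3 share ran from 0.0310 (without nrpe1 replicate 2) to 0.263 and the chromosome 4 share from 0.0464 (without nrpe1 replicate 1) to 0.212. The other shares stayed above 0.05. The causes were not tested.

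Of TEs called by limma in nrpd1 against nrpe1 (2 higher, 4 lower), 1 was higher with a pseudocount of 0.01 and with voom, 0 were higher and 2 lower with a pseudocount of 1 (16 and 20 at an unadjusted p under 0.05), and 0 and 1 with the compared genotypes only. Leaving out 1 library gave 1 to 3 higher (1 without any nrpd1 replicate) and 1 to 4 lower (2, 1 and 1 without nrpe1 replicates 1, 2 and 3). In pkl against both, a pseudocount of 1 gave 14 lower, and leaving out 1 library gave 1 to 9 higher and 31 to 44 lower. Blocking on the replicate number gave 2 higher and 5 lower in nrpd1, and 7 higher and 48 lower in pkl (replicate block), and of named TEs it ended only the call of AT4TE44410. No result reversed. AT4TE07115 and all 12 TEs named in pkl against both kept their calls in every fit that tested them. Most of them passed the filter through the higher side only, which favoured the call. TEs with reads in 1 mutant only did not pass the filter when a library of that mutant was left out.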

Other observations

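TEs detected in a single library of all 12 were found in every genotype. They numbered 60, 112 and 102 in pkl replicates 1, 2 and 3, 90, 143 and 152 in nrpd1, and 92, 85 and 114 in nrpe1, against 46, 142 and 92 in WT. TEs with reads in WT and in no mutant library numbered 296, and 1 of these had reads in all 3 WT libraries.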
